A study of Sus scrofa with 6 samples.

Results

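Probe sets with ubiquitin in their gene title were compared between 2 pig muscles. They were 5 of the 550 probe sets in the authors' deposited comparison of the muscles, and stood for 3 of its 311 distinct gene titles. The 4 probe sets of 2 titles are described here. Ubiquitin is a small protein that is joined to other proteins in a relay: an activating enzyme (E1) passes it to a conjugating enzyme (E2), and a ligase (E3) directs it from the E2 to the substrate. Chains of ubiquitin can send a protein to the proteasome, deubiquitinases take ubiquitin off again, and in skeletal muscle this route is a main path of protein turnover. The 4 concerned a conjugating enzyme and a protein that binds one. UBE2E3, an E2 enzyme, was represented by 3 probe sets, and had a mean 1.30 lower on the log2 scale in soleus than in longissimus dorsi. The E2C binding protein had 1 probe set, with a mean 0.62 lower in soleus.

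RNA came from skeletal muscle of 3 Meishan gilts of 1 litter, aged 150 days, and was hybridised to 6 Affymetrix porcine GeneChips, with 3 arrays of soleus and 3 arrays of longissimus dorsi. Soleus is the muscle that the protocol abbreviates as SE and classes as oxidative, taken from its deep part. Longissimus dorsi is the back muscle taken at the last rib, classed as fast-twitch and glycolytic. Each pig gave both muscles, and litter mates share parents, so the p-values of the whole-array fit below measure the spread between these arrays. In whole muscle, fewer cells of a type and less RNA per cell cannot be told apart.

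The deposited comparison kept probe sets that differed between the muscles on these same arrays, at an unadjusted p under 0.05 and a fold of at least 1.5. These probe sets were thus selected on their muscle difference in these 6 arrays, the values described here, and no test of the muscle difference is given for them. The files give titles only for probe sets in that comparison, so probe sets for other ubiquitin genes could not be recognised among the remaining probe sets of the array. Expression is given on the log2 scale with each probe set's median over the 6 arrays set to 0 by the authors, which allows differences but no level and no comparison of abundance between genes. Where soleus lies wholly below longissimus dorsi, this centring also places the highest soleus value and the lowest longissimus dorsi value at equal distances from 0. Where soleus lies wholly above, it does so with the lowest soleus value and the highest longissimus dorsi value. In either case the gap between the 2 values is a measurement and its position around 0 is not.

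Soleus replicate 3 stood apart from the other arrays. The SD of its values over all probe sets was 0.50, against 0.31 and 0.28 on soleus replicates 1 and 2 and 0.24 to 0.30 on the longissimus dorsi arrays. Of all 23935 probe sets that are not controls, 23.1% had their lowest value on soleus replicate 3, 22.6% on soleus replicate 1 and 11.9% on soleus replicate 2. Of the 226 non-control probe sets that the deposited comparison gives as lower in soleus, 66.8% had it on soleus replicate 3. These were chosen as low in soleus, which favours a lowest value on a soleus array, so this share and the 23.1% have unlike bases. All 4 ubiquitin probe sets described here had their lowest value on that array. The log2 differences of the ubiquitin probe sets, of other genes of the route and of the untitled probe sets are given below with and without it.

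UBE2E3 carries ubiquitin on a catalytic core that it shares almost unchanged with its relatives UBE2E1 and UBE2E2, and in mammalian cells importin 11 carries the charged enzyme into the nucleus. The authors' table titles its 3 probe sets as strongly similar to the zebrafish protein and places all of them in 1 UniGene cluster. On probe set Ssc.11673.2.S1_at the soleus arrays had values of -0.56, -0.83 and -1.10, and the longissimus dorsi arrays 0.56, 0.60 and 0.97 (values of single arrays are given throughout for replicates 1, 2 and 3, in that order). The muscles were separated by a gap of 1.11 on the log2 scale between the highest soleus and the lowest longissimus dorsi array. Its mean was -0.83 ± 0.27 in soleus and 0.71 ± 0.23 in longissimus dorsi (SD, n = 3 each), a log2 difference of -1.54 (SE 0.20), or 2.90-fold higher in longissimus dorsi.

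The second probe set, Ssc.11673.1.S1_at, gave -0.47, -0.67 and -0.85 in soleus, against 0.47, 0.58 and 1.05 in longissimus dorsi. Again no soleus array reached the lowest longissimus dorsi array, and the gap was 0.94. The means of -0.66 ± 0.19 in soleus and 0.70 ± 0.31 in longissimus dorsi (SD, n = 3 each) differed by -1.36 (SE 0.21). The third, Ssc.30971.1.A1_s_at, carries the suffix by which Affymetrix marks probe sets whose probes match more than 1 transcript. It had values of -0.27, -0.77 and -0.81 in soleus and 0.35, 0.27 and 0.51 in longissimus dorsi. Soleus replicate 1 lay well above the other soleus arrays here, and the gap between the muscles was 0.53. The log2 difference of this probe set was -0.99 (SE 0.19), the smallest of the 3. Whether any of these probes also match UBE2E1 or UBE2E2 was not tested, as probe sequences were not used here.

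**Figure D1:**
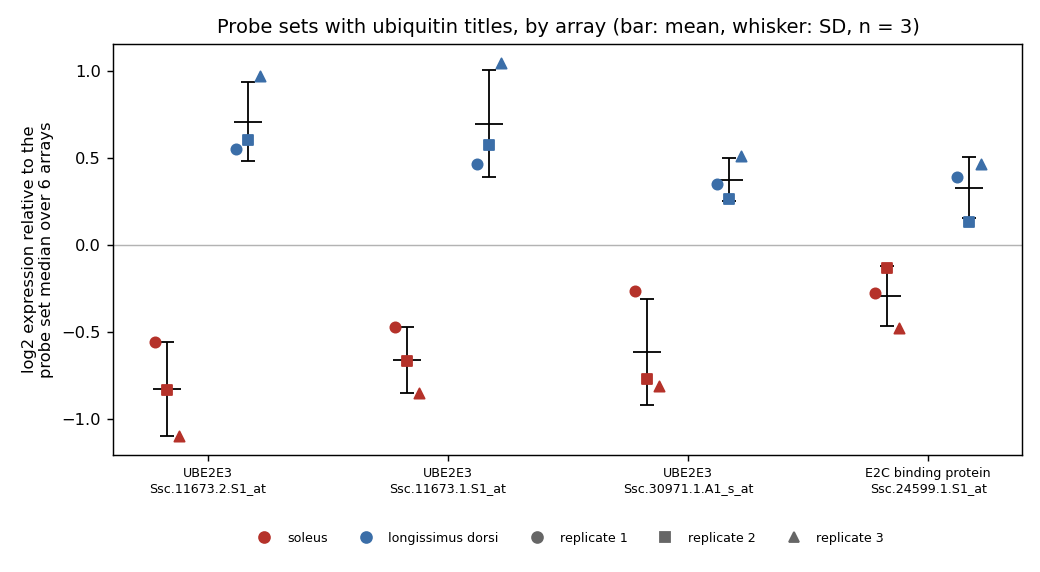
Values of the 4 ubiquitin probe sets on each array, on the log2 scale with the 6-array median of each probe set at 0, soleus left of longissimus dorsi; horizontal bars are means, whiskers SDs (n = 3) and marker shapes replicate numbers. In every probe set the 3 soleus arrays lie below the 3 longissimus dorsi arrays, with soleus replicate 3 lowest, and the widest gap, 1.11, is in UBE2E3.

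Averaged over its 3 probe sets, UBE2E3 stood at -0.43, -0.76 and -0.92 in soleus, against 0.46, 0.48 and 0.84 in longissimus dorsi. The 3 probe sets followed each other closely from array to array. Over the 6 arrays their pairwise Pearson correlations were 0.97 to 1.00, most of which is the muscle difference that chose them. With each muscle's mean taken off, 0.72 to 0.95 was left. These are descriptions over 6 arrays of 3 pigs, and the 3 probe sets share a target. In all 3 the highest value of the 6 arrays was on longissimus dorsi replicate 3, as it was for the E2C binding protein. The same held for 34.5% of the 226 non-control probe sets listed as lower in soleus. Without soleus replicate 3 the UBE2E3 mean difference was -1.19, against -1.30 with all arrays, and the 3 probe sets differed by -1.40, -1.27 and -0.90.

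The E2C binding protein is named for binding the cell-cycle conjugating enzyme UBE2C in human cells, and its human gene is now called UBE3D. The authors' table gives its probe set, Ssc.24599.1.S1_at, only as moderately similar to the human protein. Its values were -0.27, -0.13 and -0.47 in soleus, against 0.39, 0.13 and 0.47 in longissimus dorsi. It had the narrowest gap of the 4 probe sets, 0.26, set by replicate 2 of either muscle. The mean was -0.29 ± 0.17 in soleus and 0.33 ± 0.18 in longissimus dorsi (SD, n = 3 each), a log2 difference of -0.62 (SE 0.14). Without soleus replicate 3 it was 1.45-fold higher in longissimus dorsi, and without longissimus dorsi replicate 3 it was 1.47-fold higher, both under the limit.

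At the limits of the deposited comparison, 4 of the 4 probe sets were lower in soleus in a limma fit of the whole array (unadjusted p under 0.05 and at least 1.5-fold), where 2.20% of all probe sets were. In 4 of 4 the soleus arrays all lay below those of longissimus dorsi, as they did in 8.11% of all probe sets. Both counts are nearly fixed by how the probe sets were chosen. Without soleus replicate 3, 3 of the 4 met the limits, namely those of UBE2E3, and 1.37% of all probe sets did so on that side. At an adjusted p under 0.05, the fit called 2 of 23935 probe sets, or 0.00836%, and neither was one of these 4. The median log2 difference over the 4 was -1.18, against -0.03 over all probe sets and -0.77 over the 226 non-control probe sets listed as lower in soleus. Counting each gene title once, the median of the 2 titles was -0.96. Just inside the fold limit stood the E2C binding protein at 1.54-fold in the authors' deposited table.

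UBE2E3 and the E2C binding protein stood in different parts of the distribution of muscle differences. On Ssc.11673.2.S1_at UBE2E3 had a lower difference than nearly all of the array, with 13 of the 23935 probe sets at or below it. For Ssc.11673.1.S1_at there were 31 and for Ssc.30971.1.A1_s_at 151, against 826 for the E2C binding protein. By fold in the authors' deposited table, the 3 UBE2E3 probe sets ranked 11, 24 and 54 among the 227 higher in longissimus dorsi, and the E2C binding protein ranked 200. Their spread within a muscle was ordinary: the residual SDs ran from 0.17 in the E2C binding protein to 0.26 in UBE2E3, against a median of 0.24 over all probe sets.

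**Figure D2:**
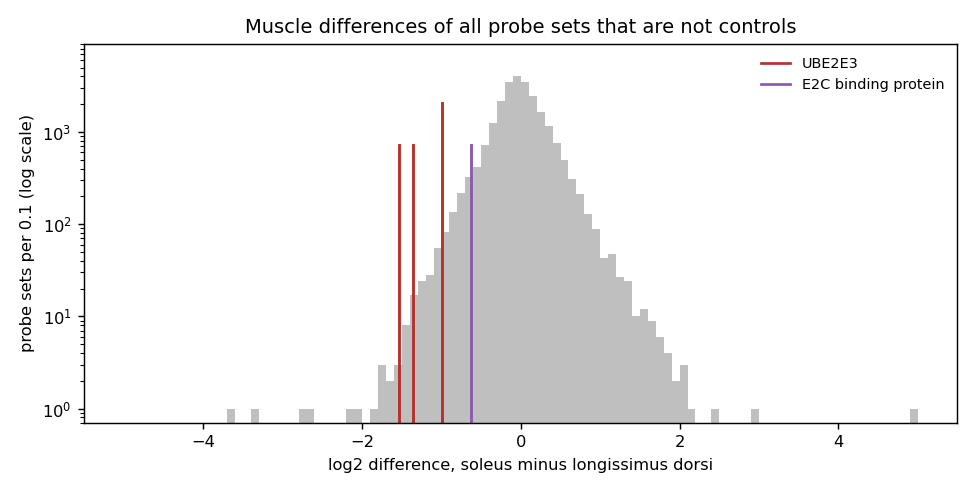
Distribution of the log2 difference, soleus minus longissimus dorsi, over 23935 probe sets (grey bars, number per 0.1 on a log axis), with vertical lines at the 4 ubiquitin probe sets. The 3 UBE2E3 lines, at -1.54, -1.36 and -0.99, lie left of the E2C binding protein at -0.62.

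Because soleus replicate 3 spread more widely than the other arrays, each value was also ranked among all probe sets of its own array. UBE2E3 on Ssc.11673.2.S1_at was at the 1.54, 0.65 and 3.13 percentiles of soleus replicates 1, 2 and 3, and at 98.0, 98.8 and 99.3 in longissimus dorsi. On this scale soleus replicate 2 and not replicate 3 held its lowest position. Ssc.11673.1.S1_at ran from 1.53 to 5.11 in soleus and from 96.3 to 99.5 in longissimus dorsi. The third, Ssc.30971.1.A1_s_at, was at 13.7, 0.84 and 5.47 in soleus and 92.0, 89.4 and 94.6 in longissimus dorsi. The E2C binding protein was at 13.0, 23.1 and 10.7 in soleus and 93.9, 76.1 and 93.4 in longissimus dorsi. It was less extreme than the first pair of UBE2E3 probe sets on every array, but not than the third on replicate 1 of either muscle.

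**Figure D3:**
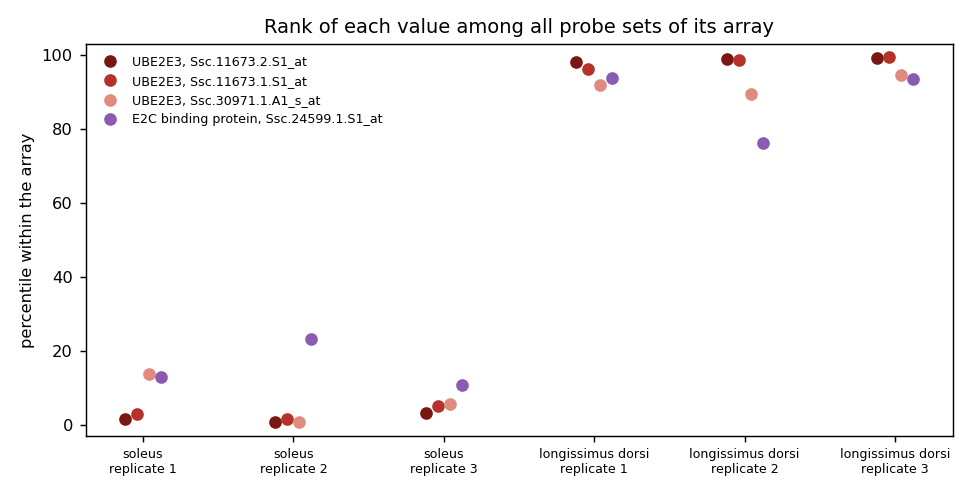
Percentile of the centred value of each ubiquitin probe set among all 23935 probe sets of the same array, for the 3 soleus and then the 3 longissimus dorsi arrays. The percentiles are not ranks of expression level. On Ssc.11673.2.S1_at and Ssc.11673.1.S1_at UBE2E3 stays within 5.11 of the bottom in soleus and at or above 96.3 in longissimus dorsi. The third UBE2E3 probe set reaches 13.7 in soleus and 89.4 in longissimus dorsi, and the E2C binding protein reaches 23.1 in soleus and 76.1 in longissimus dorsi.

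Among the other titled genes of the deposited comparison, 355 probe sets were compared with the UBE2E3 mean over the 6 arrays. All had been kept for a muscle difference, so a correlation near 1 or -1 is common among them, and 28 of them exceeded 0.95. The 5 most alike were a transcript similar to rat goliath, a RING finger protein (Pearson r = 0.998), the beta subunit of general transcription factor IIE (0.997), phosphoglucomutase 3, an enzyme of amino sugar synthesis (0.995), nudix-type motif 15, a nucleotide hydrolase (0.988), and a hypothetical protein of the rat (0.982). They matched UBE2E3 in shape and not in size. Goliath had values of -0.18, -0.39 and -0.42 in soleus, against 0.21, 0.18 and 0.39 in longissimus dorsi, a log2 difference of -0.59 (SE 0.10). The nudix-type motif 15 transcript came nearest in size, at -1.09 (SE 0.13). These differences were -0.54 and -0.96 without soleus replicate 3. Running most nearly opposite were TGFB1, a growth factor (r = -0.999, log2 difference 0.89), homeobox protein A10 (r = -0.998, 1.09) and myosin IXb, an unconventional myosin (r = -0.991, 0.70). Over the whole array 97 probe sets outside the ubiquitin titles had r above 0.95 and 92 had r below -0.95.

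**Figure D4:**
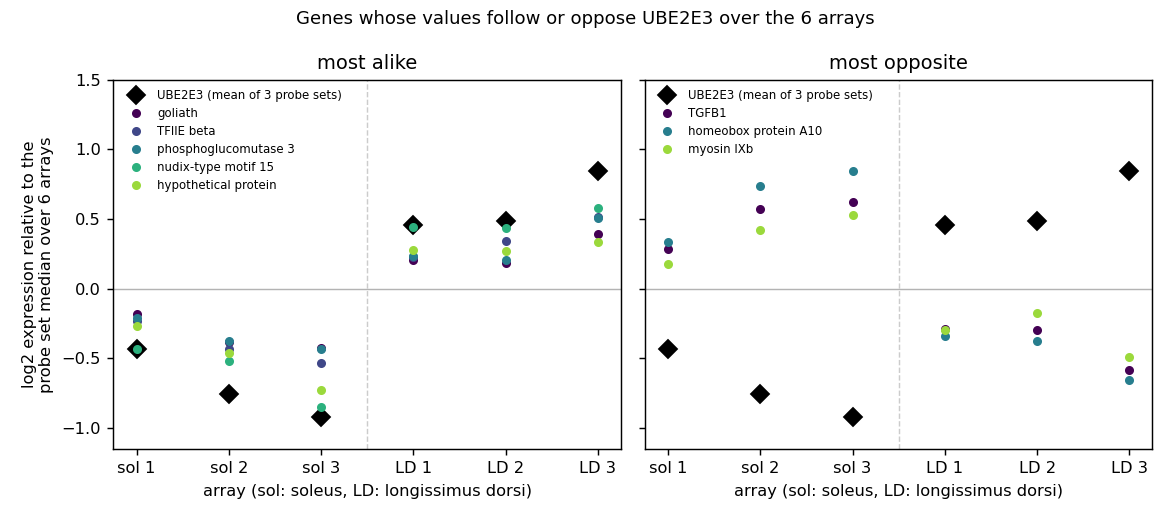
Values on the 3 soleus and 3 longissimus dorsi arrays, as log2 expression relative to each probe set's median, of the mean of the 3 UBE2E3 probe sets (black diamonds) with the 5 most similar titled genes (left) and the 3 most opposite ones (right). The similar genes are low in soleus and high in longissimus dorsi as UBE2E3 is, with smaller differences than its -1.30, and goliath is at -0.59.

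The rest of the ubiquitin route was looked up from a list of 162 genes, of which 3 were titled in the deposited comparison. Beside UBE2E3 these were COPS5, the COP9 signalosome subunit that takes the ubiquitin-like protein NEDD8 off cullin ligases, and PSMD14, the proteasome subunit that takes ubiquitin off arriving substrates. COPS5 had 2 probe sets, and on Ssc.17285.1.A1_at its values were -0.17, -0.45 and -0.89 in soleus, against 0.22, 0.47 and 0.17 in longissimus dorsi. The log2 differences of the COPS5 probe sets were -0.79 (SE 0.23) and -0.78 (SE 0.23). PSMD14, titled by its chicken counterpart, gave -0.12, -0.26 and -0.72 in soleus and 0.13, 0.46 and 0.12 in longissimus dorsi, a log2 difference of -0.60 (SE 0.22). In COPS5 and PSMD14 soleus replicate 3 was again lowest, and longissimus dorsi replicate 2 was highest. Without soleus replicate 3 the differences were -0.59 and -0.58 for COPS5 and -0.42, or 1.34-fold, for PSMD14.

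All 6 probe sets of the 3 listed genes had lower means in soleus. Of these, 3 are the UBE2E3 probe sets described above, so only 2 other genes of the list add to it. Probe sets of the same gene share a target and are not separate cases, and the list was made with earlier results known. Of the 550 probe sets in the authors' deposited comparison, 227 are on that side. Whether genes of the route lie on that side more often was not tested. Of the list, none of the 6 activating enzymes, 38 ligases, 11 ubiquitin-like and ubiquitin genes and 10 receptors and shuttles was titled there, and the muscle ligases TRIM63 and FBXO32 are among those not analysed here. Titles read after the values were seen added ZRANB1, a deubiquitinase, and the RING finger proteins RNF34, a ligase, and RNF113A, which were lower in soleus by log2 differences of -0.77 (SE 0.20), -0.67 (SE 0.12) and -0.66 (SE 0.16). ZRANB1 differed by -0.64, RNF34 by -0.69 and RNF113A by -0.51 without soleus replicate 3. Goliath, the RING finger protein described above, was titled there too and was not among these additions, so they are not a full list.

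Probe sets that the deposited comparison left out give values that were not chosen for differing, though they had not met its limits. The array holds 4 such probe sets whose identifiers carry the cluster number of the PSMD14, RNF113A or ZRANB1 probe set, and none with that of UBE2E3, the E2C binding protein, COPS5 or RNF34. They have no title in the files. Where listed titled probe sets shared such a number, the authors' table placed them in 1 UniGene cluster for 29 of 29 numbers. Those had all been kept for a muscle difference, and the number equalled that of the UniGene cluster in 225 of 360 titled probe sets. Whether the untitled probe sets measure the same genes was not tested. The probe set with the number of PSMD14, Ssc.19649.1.S1_at, gave -0.01, -0.32 and -0.89 in soleus and 0.01, 0.17 and 0.19 in longissimus dorsi. Its log2 difference was -0.53 (SE 0.26), 1.44-fold higher in longissimus dorsi and so just outside the fold limit, with soleus replicate 1 and longissimus dorsi replicate 1 nearly equal. Without soleus replicate 3 it was -0.29, or 1.22-fold. The probe set with the number of ZRANB1 differed by -0.27 (SE 0.23), or by -0.12 without soleus replicate 3, and the muscles overlapped. Of the 2 with the number of RNF113A, Ssc.21431.2.S1_at had values of 0.01, -0.01 and -1.93 in soleus and 0.12, 0.28 and -0.24 in longissimus dorsi. Its difference of -0.70 (SE 0.66) rested on soleus replicate 3, without which it was -0.06. The other, Ssc.21431.3.A1_s_at, had values of 0.40, 0.06 and 0.31 in soleus and -0.06, -0.06 and -0.44 in longissimus dorsi. It differed by 0.44 (SE 0.16), or by 0.41 without soleus replicate 3. Its soleus arrays all lay above those of longissimus dorsi, opposite to the listed RNF113A probe set. Ssc.19649.1.S1_at, Ssc.21431.2.S1_at and the probe set with the number of ZRANB1 had lower means in soleus. The median difference over all probe sets was also negative, at -0.03. As the 2 with the number of RNF113A went opposite ways, no direction is read from these 4 probe sets. Each of the 3 lower in soleus had its lowest value on soleus replicate 3. Leaving that array out therefore had to shrink their differences. The shrinkage was by more than 1.5 times in each.

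**Figure D5:**
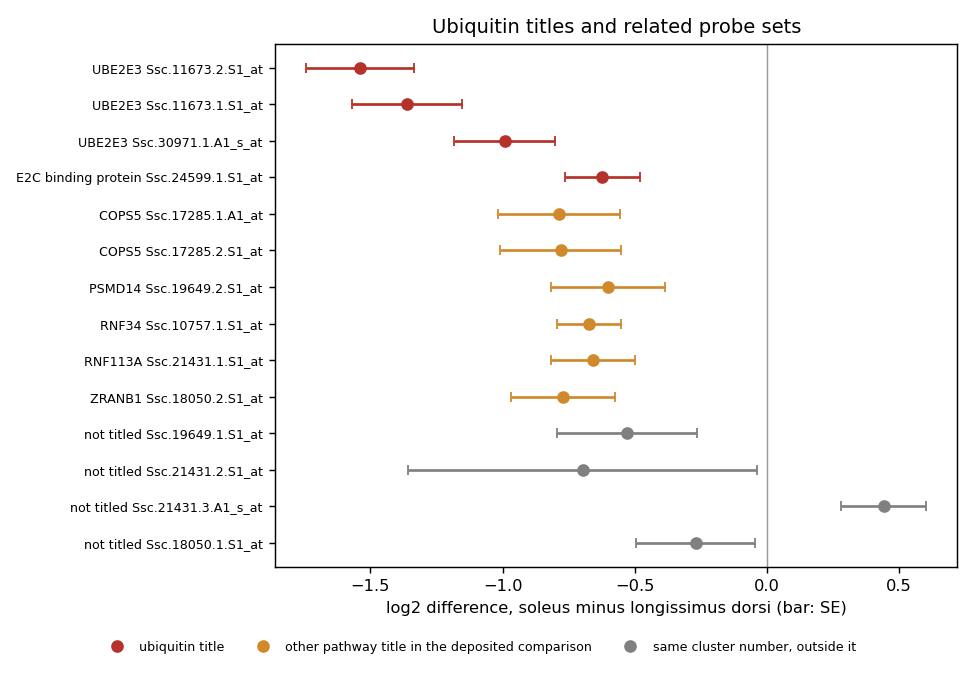
Log2 difference, soleus minus longissimus dorsi, with its SE from 3 arrays a muscle, for the 4 ubiquitin probe sets (red), other titled genes of the route (orange) and untitled probe sets with the same cluster number outside the deposited comparison (grey). UBE2E3 on Ssc.11673.2.S1_at is lowest at -1.54, and the grey points lie between -0.70 and 0.44.

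Fibre and tissue markers were titled for few genes. Of 10 slow fibre markers, MYBPC1 and MYOZ2 were titled, with a mean over their 3 probe sets of 0.40 to 0.61 on the soleus arrays and -0.93 to -0.36 on those of longissimus dorsi. Of 12 fast fibre markers only MYH4 was, with -0.51 to -0.07 in soleus and 0.07 to 0.36 in longissimus dorsi. Of 6 fibroblast and matrix markers COL1A1 and COL1A2 were, with means over 4 probe sets of 0.34 to 1.05 in soleus and -0.63 to -0.29 in longissimus dorsi. LAPTM5, of 4 leukocyte markers, averaged 0.30 in soleus and -0.36 in longissimus dorsi, and MBP, of 3 nerve and Schwann cell markers, -0.44 in soleus and 0.47 in longissimus dorsi. No endothelial, adipocyte or red cell marker was titled, and absolute levels are not held in these values. These marker probe sets had also been kept for a muscle difference. In each, the soleus arrays lay wholly above or wholly below those of longissimus dorsi. Leaving out soleus replicate 3 therefore could not reverse a marker difference, and the kept direction says nothing about stability. The part of fibre type, matrix, leukocyte and nerve content in the UBE2E3 and E2C binding protein differences was not tested.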

How the data were processed

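Biotin-labelled cRNA was made by in vitro transcription from total RNA purified with TRIzol and RNeasy columns, per the labels' protocols. MAS5 (2.3.1) is named, with no role, in the submitters' processing notes. Array scaling and probe summarisation were not given in the sources used here. As deposited, the series table holds log2 expression that the authors centred on each probe set's median over the 6 arrays, as found from the values (all medians within 5e-07 of 0). Per the file headers, the authors' comparison table gives a p-value from an unpaired test and an absolute fold, a linear ratio, with limits of 0.05 and 1.5.

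The 188 control probe sets were left out, and soleus minus longissimus dorsi was fitted over the other 23935 with limma 3.58.1 in R 4.3.3 (lmFit, eBayes) with Benjamini-Hochberg adjustment. No dim probe set could be filtered and no level given, since centred values hold no intensity. The number of arrays limits the precision. Errors are SDs over 3 arrays and SEs from the pooled SD. The fit was tested on simulated data with independent noise of equal spread on all arrays. These data have a wider soleus replicate 3 and both muscles from each pig. The simulation therefore does not show how the fit behaves on them. Quantile normalization, array medians, a replicate block, a variance trend, an unmoderated test and leaving out each array were tried.

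The members and lists were chosen with earlier results of these data known. Of the 5 probe sets with ubiquitin in their title, 1 is not reported here and the others are all named, and the 5 titled genes most like UBE2E3 and the 3 most opposite follow Pearson's r over the 6 arrays. Other names were matched to titles by hand. The labels number the replicates without naming a pig, so the arrays were treated as unpaired although each pig gave both muscles. Over these probe sets, deviations from the muscle mean in same-numbered samples had Pearson correlations of -0.14, 0.11 and 0.25, in replicate order. Such array-wide values cannot decide whether a number stands for the same pig in both muscles.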

Additional observations from a re-analysis of the deposited data

How the results depend on the processing

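The 4 ubiquitin probe sets kept a negative difference within 1 pooled SD of the reported one in 32 of 32 recalculations, which were quantile normalization, array medians and each of 6 arrays left out. As the probe sets were chosen on these arrays, this says nothing about stability. The UBE2E3 mean difference of -1.30 ran from -1.43 to -1.17 and the median over the 4, -1.18, from -1.31 to -1.06 over the left-out arrays. Counting each gene title once gave a median of -0.96. The count of ubiquitin probe sets within the limits was 3 to 4 over the left-out arrays, 3 without soleus replicate 3 and without longissimus dorsi replicate 3, where 1.37% and 2.47% of all probe sets were within them and lower in soleus (1.34% to 5.29% over the left-out arrays). The 2 calls over the whole array became 7 with the replicate block, 6 with quantile normalization, 10 with a variance trend, 1 to 4 over the left-out arrays, and 1219 at an unadjusted p under 0.05 and 1.5-fold. The causes were not tested, apart from the looser threshold. With the replicate block 4 of the 4 ubiquitin probe sets were within the limits, as were 3.50% of all probe sets on that side. The other named probe sets were recomputed without soleus replicate 3 after the data were seen. The count over the pathway list in the whole-array fit was not run, because titles cover the kept probe sets alone, and signal over background is unknown.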
